A study of Mus musculus with 9 samples.

Results

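Id1, Id2 and Id3 are the 3 members of the inhibitor of DNA binding family followed here, found as the rows of the count matrices whose gene symbol is one of these names: 3 of 31053 rows. They were read in Lin- cKit+ Sca1+ (LSK) cells, the compartment of mouse bone marrow that holds the haematopoietic stem cells (HSCs) and the multipotent progenitors. The study asked whether a short systemic inhibition of the small RhoGTPase Cdc42 with CASIN, a Cdc42 activity-specific inhibitor, changes the aged stem cell compartment. There were 9 libraries of C57BL/6 mice, 3 young, 3 aged and 3 CASIN, sequenced in 2 batches. Young mice were 10-12 weeks old and aged mice over 80 weeks old. The CASIN mice were aged animals that received 25 mg/kg of CASIN in cyclodextrin intraperitoneally, 4 injections 24 h apart, and both control groups received cyclodextrin alone, so that every group carried the vehicle. Cells were taken on day 5, frozen viably and thawed before the libraries were made. Young and CASIN replicates 1 and 2 and aged replicate 1 belonged to batch 1, and the other 4 libraries (young and CASIN replicate 3, aged replicates 2 and 3) to batch 2. The labels do not say how many animals gave a library, so the p-values measure the spread between these libraries.

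Id proteins are helix-loop-helix proteins without the basic region that touches DNA. They pair with the E proteins Tcf3, Tcf4 and Tcf12, basic helix-loop-helix activators of lymphoid genes, and keep them from binding their E-box sites. Their genes are classical targets of bone morphogenetic proteins (BMPs), which act through the receptor Bmpr1a and the transcription factors Smad1 and Smad5. In blood formation, Id1 is known to restrain the differentiation of stem cells, Id2 is needed for dendritic, natural killer and innate lymphoid cells, and Id3 limits E proteins in B and T cell development.

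In the GRCm38 annotation, Id1 (ENSMUSG00000042745) lies on chromosome 2 from 152736251 to 152737410 on the plus strand. Id2 (ENSMUSG00000020644) lies on chromosome 12 from 25093799 to 25097140 on the minus strand, and Id3 (ENSMUSG00000007872) on chromosome 4 from 136143497 to 136145755 on the plus strand. All 3 genes are protein coding, none overlaps another annotated gene, and each has a different chromosome, so a shared change in level is not a shared stretch of reads. Since the family is known for its response to BMPs, the RefSeq promoter windows of build GRCm38.p6 were searched on both strands for the letters GGCGCC, a BMP-type Smad element, and CAGAC, the Smad box. Windows were at hand for Id2 and Id3. The stretch of Id2 below, chr12:25096254-25096342 on the minus strand, lies inside the annotated span of the gene and outside every annotated exon, and the sites of Id3, chr4:136143645-136143669 and chr4:136143744-136143768 on the plus strand, lie inside annotated exons. Capitals mark the motif found, read 5′ to 3′.
Id2 stretch: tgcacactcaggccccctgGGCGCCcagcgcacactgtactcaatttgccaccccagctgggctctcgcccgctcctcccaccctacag
Id3 first site: tcctcggcgtCAGACcagcctaagg
Id3 second site: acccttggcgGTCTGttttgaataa
The window of Id2 held 1 GGCGCC, 231 bases before the transcript start that this RefSeq window is set on. That of Id3 held 2 Smad boxes, 167 and 68 bases before the start of its own window, the second on the other strand. All of these sites lie after the outermost annotated start of their gene. GGCGCC was found in 9.59% and CAGAC in 42.2% of 32851 promoter windows. The window of Id2 held no CAGAC and that of Id3 no GGCGCC. A match of these letters is a description of the sequence and not a binding site.

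The filters kept 15856 of 32387 barcodes. The batches differed before any comparison: the median mitochondrial share over all barcodes was 2.73 to 4.61% in the batch 1 libraries and 13 to 15.5% in those of batch 2, and 56.4 to 86.2% and 31.6 to 38.4% of the barcodes were kept. Kept cells had a median of 9531.5 to 14622 unique molecular identifiers (UMIs, 1 per captured RNA molecule) per library. Kit and Ly6a, which encode cKit and Sca1, were at 112 to 225 and 87.9 to 186 CPM (UMI counts of a gene scaled to a common library total) in every library, so the sorted identity was present in all of them. Of the kept barcodes, 54 occurred in more than 1 library. Clustering gave 17 classes, 15 of which were named by marker genes and carry the ending "-like". The remaining pair is called by its leading genes, the Ctsg Srm cluster and the Hist1h1c cluster. The Id genes were taken out of the genes used for clustering, so that no class was made from them. The 2 HSC-1-like classes were told apart by Vwf, a marker of platelet-biased stem cells, and are called Vwf-high and Vwf-low, and both together, 4110 cells, are called HSC-1-like.

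Id1 was highest in the HSC-like classes. Its level, given throughout as CPM (the UMIs of the gene scaled to all UMIs of a class or sample), was highest in HSC-1-like Vwf-high cells at 63.2 ± 28.1 (SD, n = 9 samples), followed by HSC-3-like cells (with MHC class II genes as markers) at 50.1 ± 34.1 and HSC-2-like cells (with immediate early genes as markers) at 41.7 ± 29.6. It stood at 10.1 ± 6.07 in the lymphoid-primed LMPP-like cells and at 3.1 ± 3.34 in early lymphoid-like cells, the lowest of the 17 classes. HSC-1-like Vwf-high cells exceeded HSC-3-like cells in only 5 of 9 samples, and Vwf-low cells (27.2 ± 16.4) in 9 of 9. The level of Id1 moved with the batch in some of these classes. In edgeR's model given below, the log2 difference of batch 2 over batch 1 was -1.79 ± 0.25 (SE) in HSC-3-like cells. It was -1.60 ± 0.36 in HSC-2-like, -1.83 ± 0.28 in LMPP-like and -0.06 ± 0.22 in Vwf-high cells. LMPP-like cells were below HSC-1-like cells, below HSC-2-like cells and below HSC-3-like cells in 9 of 9 samples each. HSC-1-like cells held 37.2% of all Id1 UMIs and 20.6% of all UMIs. Early lymphoid-like cells were lower than LMPP-like cells in 9 of 9 samples, on 18 Id1 UMIs in 385 cells and with 0 CPM in the lowest sample. Their median depth was 15739 UMIs per cell, and that of HSC-1-like cells 9769.

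Id2 and Id3 were both highest in the small monocyte and dendritic MP-like class (94 cells), the class marked by Irf8, Csf1r and Ly86. Id2 stood there at 277 ± 197 CPM, with a lowest sample of 21.6 and a highest of 619, above HSC-1-like cells (22.8 ± 12.7) in 9 of 9 samples. A sample held only 5 to 18 cells of this class, so its levels rest on few cells. This class held 9.59% of the Id2 UMIs and 0.659% of all UMIs. The next level of Id2 was that of early lymphoid-like cells with 36.8 ± 23.5, above LMPP-like cells (18.5 ± 6.11) in 8 of 9 samples, so that the class lowest in Id1 was the second highest in Id2. Id3 stood at 186 ± 168 in monocyte and dendritic MP-like cells, above HSC-1-like cells (55.8 ± 52.2) in 8 of 9 samples, and then at 67.3 ± 67.5 in the megakaryocyte-primed MPP2-like cells and 62.7 ± 60.4 in HSC-1-like Vwf-high cells. This order of Id3 moved with the batch. In edgeR's model given below, the log2 difference of batch 2 over batch 1 was 3.17 ± 0.35 (SE) in MPP2-like cells. It was 2.10 ± 0.23 in Vwf-high cells and -1.06 ± 0.21 in LMPP-like cells. HSC-1-like cells exceeded LMPP-like cells (32.2 ± 12.6 CPM, SD) in 4 of 9 samples, those of batch 2. The lowest Id3 level was 22.9 ± 18.1 in CC-2-like cells, which carry mitotic markers, and the lowest Id2 level was 6.89 ± 7.53 in granulocyte MP-like cells, a class of 103 cells with a median of 1942 UMIs.

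The spread between samples was wide beside the steps from class to class. Each class was compared with the next one in the order of its gene, on log2 (CPM + 1) within samples, with a two-sided exact sign-flip permutation test over the 9 samples. None of the 48 neighbouring pairs of the 3 genes passed after Benjamini-Hochberg adjustment. With 9 samples this test cannot give a p below 0.0039, and a single pair at that p could not pass over 48 pairs. The 2 pairs with an unadjusted p below 0.05 in this exact test were the first steps of Id2 and of Id3, from monocyte and dendritic MP-like cells to early lymphoid-like cells (p = 0.0078, adjusted p = 0.281) and to MPP2-like cells (p = 0.0117, adjusted p = 0.281), each down in 8 of 9 samples. The test can therefore not decide single steps, and classes further apart were not compared by it. The order of each gene over the 17 classes is given as a description. At a coarser clustering (resolution 0.4) no neighbouring pair passed either. There HSC-3-like cells led in Id1 (52.6 ± 36.7), next to HSC-1-like cells (51.5 ± 24.5). As a description over 17 classes that share the same 9 libraries, the Pearson r of log2 mean levels was 0.71 between Id2 and Id3, 0.31 between Id1 and Id3 and -0.01 between Id1 and Id2. The monocyte and dendritic MP-like class stands apart here, at 277 CPM of Id2 and 186 of Id3 beside next levels of 36.8 and 67.3. No r was computed without it.

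**Figure D1:**
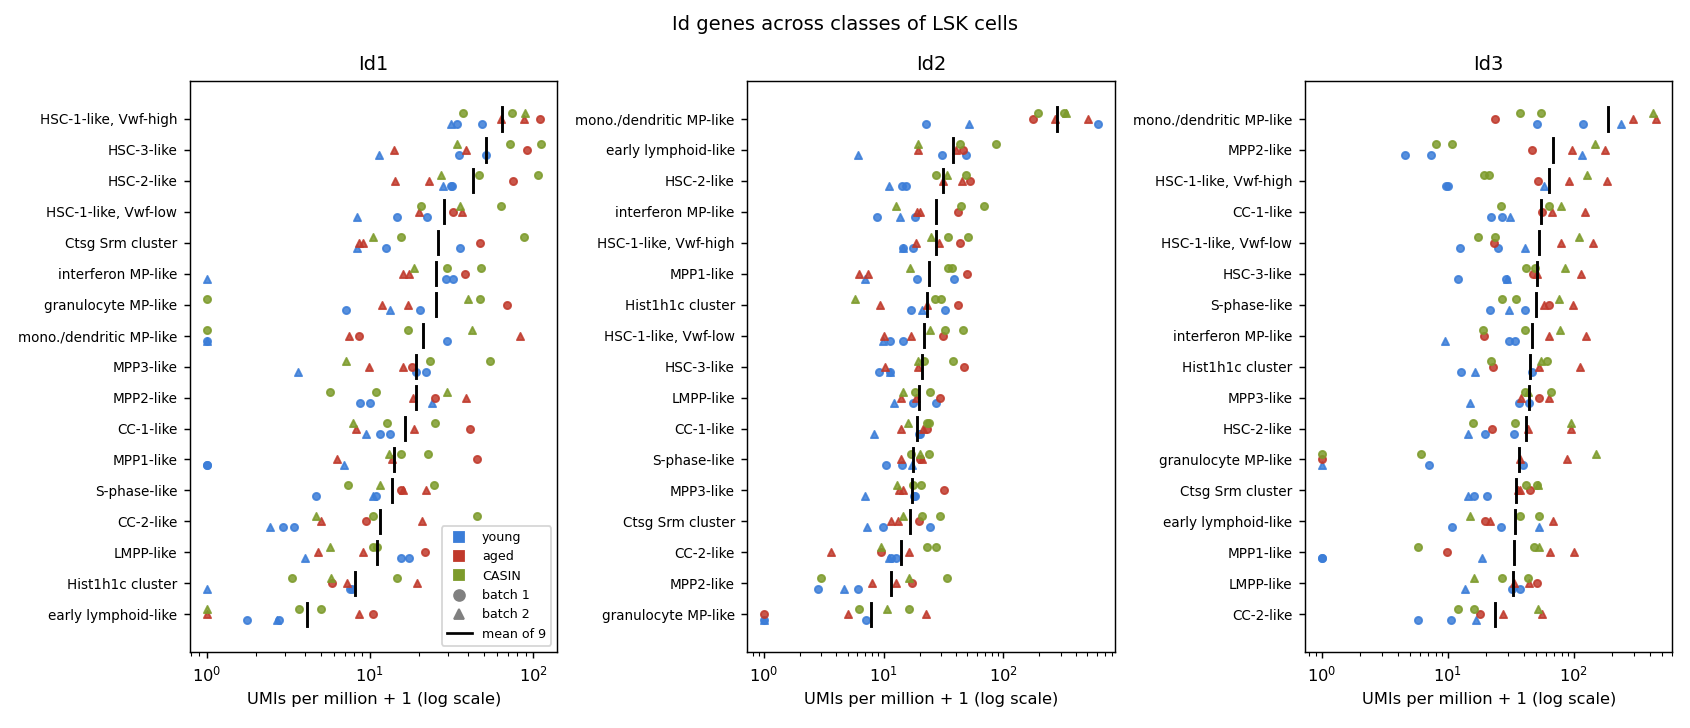
Levels of Id1, Id2 and Id3 (CPM + 1, log axis) in the 17 classes of LSK cells, ordered by the mean over 9 samples (black tick), with 1 point per sample coloured by group and shaped by batch. By this mean Id1 leads in HSC-1-like Vwf-high cells at 63.2, which exceed the next class in 5 of 9 samples. Id2 and Id3 lead in the monocyte and dendritic MP-like class at 277 and 186.

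Over all LSK cells, the Id genes were higher in aged than in young samples, and Id2 passed the test. Id1 was at 15.1, 19.0 and 7.74 CPM in young replicates 1, 2 and 3 and at 44.5, 26.7 and 13.8 in aged replicates 1, 2 and 3. The groups overlapped over both batches together, since aged replicate 3 was below young replicates 1 and 2, but within either batch every aged sample was above every young one. Id2 was at 16.5, 19.2 and 9.03 in the young and at 34.6, 26.2 and 14.9 in the aged samples, with the same overlap through aged replicate 3 and the same separation within each batch. Id3 was at 21.4, 30.3 and 30.1 in the young and at 37.3, 102 and 56.6 in the aged samples. Here the groups did not overlap, and the aged samples of batch 2 were the highest.

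The UMIs summed per sample were compared with edgeR's quasi-likelihood test with the sequencing batch as a term, and p-values were adjusted over all 13642 genes tested with the Benjamini-Hochberg method at a threshold of 0.05. In aged over young samples, 4.1% of the genes tested passed. Of the members 1 of 3 did: Id2 rose by a log2 fold change of 1.05 ± 0.21 (SE), 2.07-fold, with an adjusted p of 0.0272 and 0.96 and 1.21 within batches 1 and 2. Id1 gave 1.32 ± 0.35 (adjusted p = 0.069, 1.39 and 1.41 within the batches) and Id3 gave 0.89 ± 0.29 (adjusted p = 0.116, 0.54 and 1.42 within the batches), and neither passed. The 95% intervals of the log2 fold changes were 0.53 to 2.11 for Id1, 0.59 to 1.52 for Id2 and 0.23 to 1.54 for Id3. The call of Id2 was lost without young replicate 1, 2 or 3, aged replicate 1 or CASIN replicate 1 (log2 fold changes of 0.94 to 1.14, adjusted p of 0.0576 to 0.104), and Id1 passed without aged replicate 3 (1.51, adjusted p = 0.0407) or CASIN replicate 2 (1.38, adjusted p = 0.0246).

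Between CASIN and aged samples no member passed the test over all LSK cells. In the CASIN samples Id1 was at 52.9, 22.1 and 25.4, Id2 at 34.7, 27.6 and 18.9 and Id3 at 37.9, 30.3 and 77.8 CPM in replicates 1, 2 and 3. All 3 ranges overlapped those of the aged samples. The log2 fold changes of CASIN over aged were -0.02 for Id1 (95% interval -0.77 to 0.74), -0.19 for Id2 (-0.64 to 0.26) and -0.20 for Id3 (-0.82 to 0.43), with adjusted p of 0.987 or more. In this contrast 0% of the genes passed in edgeR, 439 had an unadjusted p below 0.05, and DESeq2 called 0 genes as well. Each interval included 0 and both directions.

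Between CASIN and young samples, which share the young samples with the first contrast and the CASIN samples with the second, 4.27% of the genes passed and again 1 of 3 members. Id2 rose by 0.86 ± 0.20 (adjusted p = 0.0435), while Id1 gave 1.3 ± 0.34 (adjusted p = 0.0621) and Id3 gave 0.69 ± 0.27 (adjusted p = 0.166). The call of Id2 was lost when any young or any CASIN sample was left out (0.79 to 0.98, adjusted p of 0.0557 to 0.174). Id1 passed without aged replicate 1 (1.29, adjusted p = 0.0316) or CASIN replicate 2 (1.65, adjusted p = 0.0236).

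**Figure D2:**
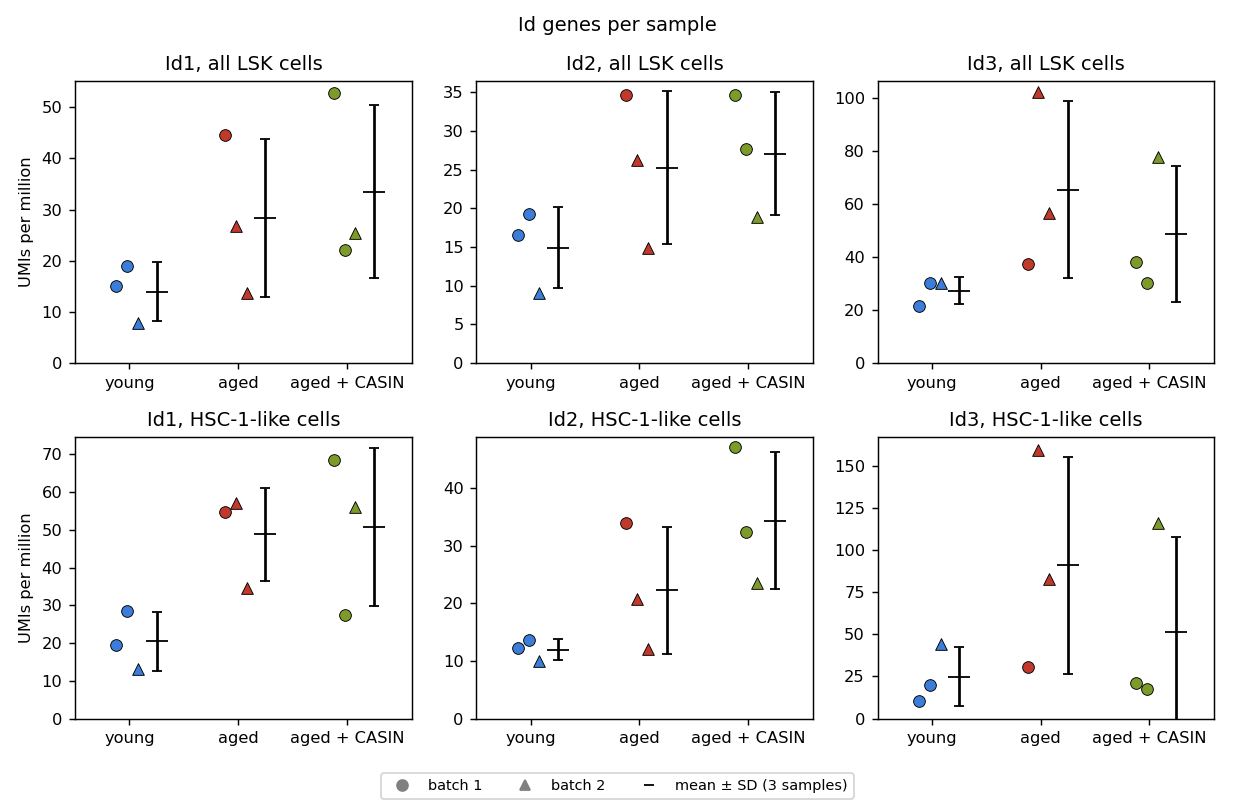
Levels of Id1, Id2 and Id3 (CPM) per sample over all LSK cells and in HSC-1-like cells, with symbols for the sequencing batch and black bars for the mean ± SD of 3 samples per group, cut at 0. Aged and CASIN samples overlap each other for every gene, young replicate 3 lies above the aged and CASIN samples of batch 1 for Id3 in HSC-1-like cells, and Id3 in HSC-1-like cells reaches 159 and 116 only in samples of batch 2.

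The whole-compartment level depends on which classes a sample holds. HSC-1-like cells made up 14%, 15.8% and 24.6% of the cells in the young, 34.8%, 28.6% and 25.5% in the aged and 26.9%, 24.7% and 39.6% in the CASIN samples. The share of each class in the UMIs of a sample, not in its cells, was then held at its mean over the 9 samples. This alternative was added after the data were seen and carries no test. The mean of the within-batch log2 ratios of aged over young moved from 1.35 to 1.05 for Id1, from 1.04 to 0.87 for Id2 and from 0.95 to 1.06 for Id3. In CASIN over young it moved from 1.36 to 0.96 for Id1 and from 0.93 to 0.84 for Id2, and was 0.89 both ways for Id3. In CASIN over aged it moved from 0.01 to -0.09, from -0.11 to -0.03 and from -0.05 to -0.16 for Id1, Id2 and Id3.

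Within HSC-1-like cells all 3 members rose with age. Id1 was at 19.5, 28.6 and 13.2 CPM in young replicates 1, 2 and 3, at 54.6, 57.1 and 34.6 in the aged and at 68.5, 27.6 and 56.2 in the CASIN samples. The young and aged groups did not overlap, and CASIN replicate 2 alone of the CASIN samples reached into the young range. Id2 was at 12.2, 13.6 and 10.0 in the young, 33.9, 20.8 and 12.1 in the aged and 47.1, 32.3 and 23.6 in the CASIN samples. Aged replicate 3 lay inside the young range, and all CASIN samples lay above it. Id3 was at 10.7, 19.9 and 44.4 in the young, 30.9, 159 and 82.8 in the aged and 21.2, 17.4 and 116 in the CASIN samples. Its level followed the batch, with a log2 difference of 2.03 ± 0.23 of batch 2 over batch 1 in the same model, against -0.83 ± 0.18 for Id2 and -0.23 ± 0.26 for Id1, and the aged samples were above the young ones within each batch.

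In edgeR's test of HSC-1-like cells, aged over young gave log2 fold changes of 1.37 ± 0.34 for Id1 (adjusted p = 0.0226), 1.19 ± 0.24 for Id2 (adjusted p = 0.00789) and 1.22 ± 0.30 for Id3 (adjusted p = 0.0216). Thus 3 of 3 members passed, where 8.67% of 11488 genes did. Within batches 1 and 2, Id1 changed by 1.25 and 1.85, Id2 by 1.46 and 0.76 and Id3 by 1.09 and 1.49. These calls rested on few libraries. Those of Id1 and Id3 were lost without young replicate 1, young replicate 3, aged replicate 1 or aged replicate 2 (1.07 to 1.29 with adjusted p of 0.0561 to 0.154 for Id1, and 0.83 to 1.13 with adjusted p of 0.0634 to 0.166 for Id3), and that of Id2 only without aged replicate 1 (0.93, adjusted p = 0.128). DESeq2 gave 1.40 for Id1 (adjusted p = 0.0567) and 1.16 for Id3 (adjusted p = 0.0847), neither past the threshold, and called Id2.

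Over young HSC-1-like cells, those of CASIN mice had 1.38 ± 0.32 for Id1 (adjusted p = 0.0121), 1.56 ± 0.22 for Id2 (adjusted p = 0.000617) and 0.88 ± 0.30 for Id3 (adjusted p = 0.0654), so that 2 of 3 members passed, where 14.8% of the genes did. The call of Id2 held without any single one of the 9 samples (1.41 to 1.71, adjusted p of 0.00596 or less). Id1 lost its call without CASIN replicate 1 or 3 or young replicate 1 (1.12 to 1.29, adjusted p of 0.0575 to 0.0789), and Id3 passed without young replicate 2 (1.2, adjusted p = 0.0234), aged replicate 2 (0.90, adjusted p = 0.0377) or aged replicate 3 (0.87, adjusted p = 0.0285). In CASIN over aged HSC-1-like cells the values were 0.01 ± 0.29 for Id1, 0.37 ± 0.20 for Id2 and -0.34 ± 0.26 for Id3, with an adjusted p of 0.999 each. Here edgeR passed 0% of the genes, with 439 at an unadjusted p below 0.05, and DESeq2 called 0.

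Split by Vwf, the aged Vwf-high cells rose in all 3 members, by 1.25 ± 0.30 for Id1 (adjusted p = 0.0233), 1.31 ± 0.27 for Id2 (adjusted p = 0.00833) and 1.72 ± 0.33 for Id3 (adjusted p = 0.00445), with 2.78% of the genes passing. In aged Vwf-low cells Id2 passed with 1.06 ± 0.27 (adjusted p = 0.0366) and Id1 and Id3 gave 1.23 ± 0.40 (adjusted p = 0.101) and 0.93 ± 0.33 (adjusted p = 0.132), with 5.99% passing. In CASIN over young samples Id2 passed in Vwf-high (1.34 ± 0.25, adjusted p = 0.00258) and Vwf-low cells (1.65 ± 0.26, adjusted p = 0.00187), Id3 in Vwf-high cells (1.2 ± 0.34, adjusted p = 0.045) and Id1 in Vwf-low cells (1.52 ± 0.39, adjusted p = 0.0246), where 4.49% and 9.88% of the genes passed. Whether the classes differed in these changes was not tested.

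In aged over young samples, HSC-2-like cells had the largest change of Id2 among the classes that passed. Its level was 14.2, 13.2 and 10.1 CPM in young replicates 1, 2 and 3 and 51.2, 30.4 and 44.4 in the aged samples. Each aged sample was above each young one, and the level of the young sample of batch 2 rested on 3 UMIs. In batch 2 the class held 24 young cells, 31 and 45 cells in aged replicates 2 and 3 and 51 CASIN cells. A sample of batch 1 held 115 to 248 cells of it. The log2 fold change of Id2 was 1.95 ± 0.28 (adjusted p = 0.000284, 5.39% of the genes passing), and without aged replicate 1 it was 1.77 with an adjusted p of 0.167. The other members did not pass. Id1 gave 1.13 ± 0.34 (adjusted p = 0.0632, 1.36 and -0.51 within batches 1 and 2). Id3 gave 0.22 ± 0.43 (adjusted p = 0.88, -0.18 and 2.44 within batches 1 and 2). CASIN over young HSC-2-like cells rose in Id2 by 1.5 ± 0.27 (adjusted p = 0.00227) and in Id1 by 1.24 ± 0.31 (adjusted p = 0.0198), with 8.03% of the genes passing. Id3 gave 0.41 ± 0.40 (adjusted p = 0.638). The call of Id1 did not hold without CASIN replicate 1 (0.64, adjusted p = 0.322), young replicate 1 (1.10) or young replicate 2 (1.15), and Id1 was 0.04 within batch 2.

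In aged HSC-3-like cells Id2 and Id3 passed, with 1.74 ± 0.42 (adjusted p = 0.0385) and 1.42 ± 0.33 (adjusted p = 0.0364), and Id1 gave 1.14 ± 0.32 (adjusted p = 0.0792), with 1.72% of the genes passing. Id3 was at 11.1, 28.0 and 28.5 CPM in the young and 46.2, 113 and 50.4 in the aged samples, without overlap. Id2 was at 10.2, 8.11 and 10.4 in the young and 46.2, 18.4 and 9.33 in the aged samples, so aged replicate 3 stayed in the young range. Without aged replicate 1 the change of Id2 was 0.92 (adjusted p = 0.619), and its call was also lost without young replicate 1, young replicate 2, aged replicate 2 or CASIN replicate 1 (1.51 to 1.73). That of Id3 was lost without young replicate 1 or 3 or aged replicate 1 or 2 (1.06 to 1.39). In CASIN over young HSC-3-like cells 3 of 3 members passed, where 2.3% of the genes did: Id1 with 1.28 ± 0.28 (adjusted p = 0.0207), Id2 with 1.56 ± 0.39 (adjusted p = 0.0454) and Id3 with 1.40 ± 0.32 (adjusted p = 0.026). Each of these calls was lost without young replicate 1, CASIN replicate 1 or CASIN replicate 3, and in addition without young replicate 2 for Id1 and Id2 and without young replicate 3 for Id3 (1.08 to 1.56, adjusted p of 0.0539 to 0.251).

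Outside the HSC-like classes only Id3 in the Ctsg Srm cluster passed among the other classes tested. It was at 15.1, 19.5 and 13.6 CPM in the young, 43.9, 35.2 and 36.1 in the aged and 49.7, 40.5 and 50.5 in the CASIN samples. All young samples were below all others in both batches. Aged samples exceeded young ones by 1.3 ± 0.23 on the log2 scale (adjusted p = 0.0145), where 0.277% of the genes passed. CASIN samples exceeded them by 1.56 ± 0.20 (adjusted p = 0.000722), where 0.139% passed. The first was lost without young replicate 1 (1.19), aged replicate 1 (1.14) or CASIN replicate 1 (1.3), with adjusted p of 0.0561 to 0.0946, and the second held without any single sample. In LMPP-like cells none of the members passed. Id3 was at 31.4, 36.2 and 12.8 in the young, 50.5, 42.7 and 32.3 in the aged and 26.2, 42.5 and 15.1 in the CASIN samples, and gave 1.07 ± 0.24 for aged over young (adjusted p = 0.106) and -0.96 for CASIN over aged (adjusted p = 0.89). Without aged replicate 1 the former passed (1.51, adjusted p = 0.0349), and without the filter on low counts the latter did (-0.97, adjusted p = 0.000471). In these cells 0.154% of the genes passed in aged over young and 0.0578% in CASIN over young. In the other classes tested, which had no call of a member, the share of genes passing in aged over young was 0.241% in CC-1-like, 0.141% in Hist1h1c, 0.766% in MPP1-like, 0.78% in MPP2-like, 1.1% in MPP3-like, 0.242% in S-phase-like and 0% in early lymphoid-like cells. In CASIN over young it was 0.181%, 0.0469%, 1.09%, 0.653%, 0.256%, 0.0727% and 0% in the same order. The members closest to the threshold there were Id3 in aged CC-1-like cells (1.41 ± 0.28, adjusted p = 0.0649) and Id2 in aged MPP3-like cells (0.84 ± 0.22, adjusted p = 0.0896). Classes with fewer than 20 cells in a sample, the monocyte and dendritic MP-like class among them, were not tested between groups.

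Within the classes, CASIN over aged gave no call of a member in edgeR with the filter on low counts, and 0% of the genes passed in each class tested but the HSC-1-like Vwf-high (0.0199%) and HSC-3-like cells (0.0228%). The members with an unadjusted p below 0.05 were Id3 (-0.96 ± 0.24) and Id1 (-0.88 ± 0.33) in LMPP-like cells, Id1 in CC-1-like cells (-0.98 ± 0.35), Id2 in MPP3-like cells (-0.52 ± 0.21), Id3 in Vwf-high cells (-0.52 ± 0.25) and Id2 in Vwf-low cells (0.59 ± 0.23), with adjusted p of 0.546 or more.

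**Figure D3:**
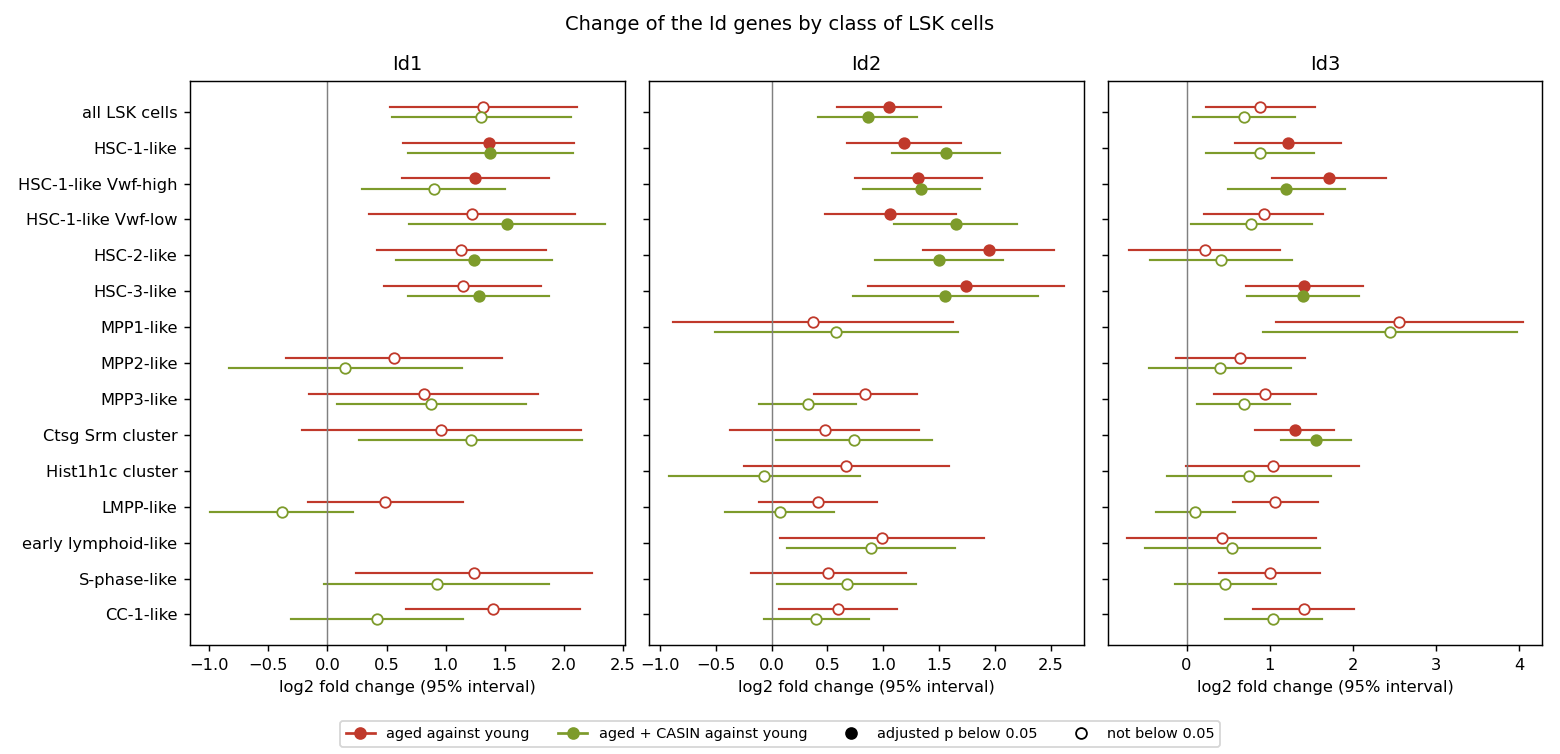
Log2 fold change of Id1, Id2 and Id3 by class of LSK cells for aged over young (red) and CASIN over young (green) from edgeR's model with a batch term, with bars for the 95% interval, filled where the adjusted p is below 0.05 and left blank where the gene missed the filter on low counts. Filled points lie above 0, all in the HSC-like classes, over all LSK cells (Id2) or in the Ctsg Srm cluster (Id3).

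To ask whether stem-like cells changed more than lymphoid-primed progenitors, the per-sample difference of log2 level between HSC-1-like and LMPP-like cells was compared between groups with limma over 10151 genes. In CASIN over young samples the change was larger in HSC-1-like cells by 1.56 ± 0.29 for Id1 (adjusted p = 0.0049) and by 1.45 ± 0.27 for Id2 (adjusted p = 0.00477), and 4.58% of the genes passed. In LMPP-like cells Id1 had been at 14.5, 16.4 and 3.01 CPM in the young and at 9.46, 10.1 and 4.70 in the CASIN samples, where no CASIN sample of batch 1 reached the young ones. For Id3 the difference was 0.71 ± 0.29 (adjusted p = 0.216). In aged over young samples the differences were 0.92 ± 0.30 for Id1 (adjusted p = 0.151), 0.66 ± 0.28 for Id2 (adjusted p = 0.288) and 0.10 ± 0.30 for Id3 (adjusted p = 0.924), and none passed where 1.61% of the genes did. In CASIN over aged samples they were 0.64 ± 0.30 for Id1, 0.79 ± 0.28 for Id2 and 0.60 ± 0.30 for Id3 (limma adjusted p = 0.917 each). The 2 calls of CASIN over young held without any single sample, with 1.16 to 1.95 for Id1 and 1.15 to 1.70 for Id2.

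The members were sparse in single cells. Among LSK cells with a UMI of a member, the median was 1 UMI for Id1 and Id2 in every group and 1 or 2 UMIs for Id3, while the highest cell held 44 UMIs of Id1, 137 of Id2 and 30 of Id3. To compare shares of cells at equal depth, each cell was thinned to 4000 UMIs, which left out 77 young, 134 aged and 121 CASIN cells with fewer. An Id1 UMI was then found in 3.50% ± 0.79 of young (SD, n = 3), 7.68% ± 2.74 of aged and 8.37% ± 3.49 of CASIN LSK cells, and without thinning in 7.86%, 15.7% and 14.9%. In early lymphoid-like cells, the class lowest in Id1, the share over all samples was 1.21% ± 1.73. An Id2 UMI was found in 4.74% ± 1.59, 7.71% ± 3.83 and 8.40% ± 1.51 of the cells, and an Id3 UMI in 7.38% ± 2.78, 18.4% ± 10.9 and 13.2% ± 10.4. Unthinned shares were 14.4%, 18.3% and 20.3% for Id2 and 16%, 31.8% and 22.5% for Id3.

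With 3 samples against 3, the two-sided exact permutation test cannot give a p below 0.1. This smallest p was reached in aged over young for Id1 (difference of 4.18 percentage points, 5.72 and 4.06 within batches 1 and 2) and in CASIN over young for Id1 (4.87) and Id2 (3.66). Aged over young gave 2.97 percentage points for Id2 (exact p = 0.4) and 11 for Id3 (exact p = 0.2). This test takes no account of the batch, over which the groups are not balanced, and within batches 1 and 2 Id2 differed by 6.30 and 2.63 and Id3 by 1.49 and 13.4. CASIN over aged gave exact p of 0.6 to 0.8 for the 3 genes. For Id3 this was -5.14 percentage points over both batches but -0.059 and 1.32 within them, and the values within the batches were -1.53 and 2.18 for Id1 and -2.78 and 1.33 for Id2.

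UMIs of Id1 and of Id2 were each found more often in cells that also held an Id3 UMI. In HSC-1-like cells thinned to 4000 UMIs, an Id1 UMI was present in 29.4% ± 18.7 (SD, n = 9 samples) of the cells with an Id3 UMI and in 7.92% ± 5.33 of those without one. This direction held in 9 of 9 samples (two-sided exact sign-flip permutation test, p = 0.0039, the smallest 9 samples can give, adjusted p = 0.0117 over 3 pairs), over 170 cells with both. Samples count equally in these means, and a sample held 8 to 37 cells with an Id3 UMI in batch 1 and 41 to 326 in batch 2. An Id2 UMI was present in 19.0% ± 14.4 of the cells with and 7.0% ± 3.42 of those without an Id3 UMI, in 8 of 9 samples (exact permutation adjusted p = 0.0234, 86 cells with both). For Id1 given Id2 the shares were 15.9% ± 9.20 and 9.17% ± 5.77, in 7 of 9 samples (exact permutation adjusted p = 0.0781, 56 cells with both). Over all LSK cells this pair passed (exact permutation adjusted p = 0.0117), but not with cells thinned to 2000 UMIs (6 of 9 samples, exact permutation adjusted p = 0.117). In HSC-1-like cells thinned to 2000 UMIs both pairs with Id3 passed. Id1 was more frequent in 8 of 9 samples (exact permutation adjusted p = 0.0176) and Id2 in 9 of 9 (0.0117). Before thinning, HSC-1-like cells with an Id3 UMI had a median of 9734 UMIs and those without 9791.

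**Figure D4:**
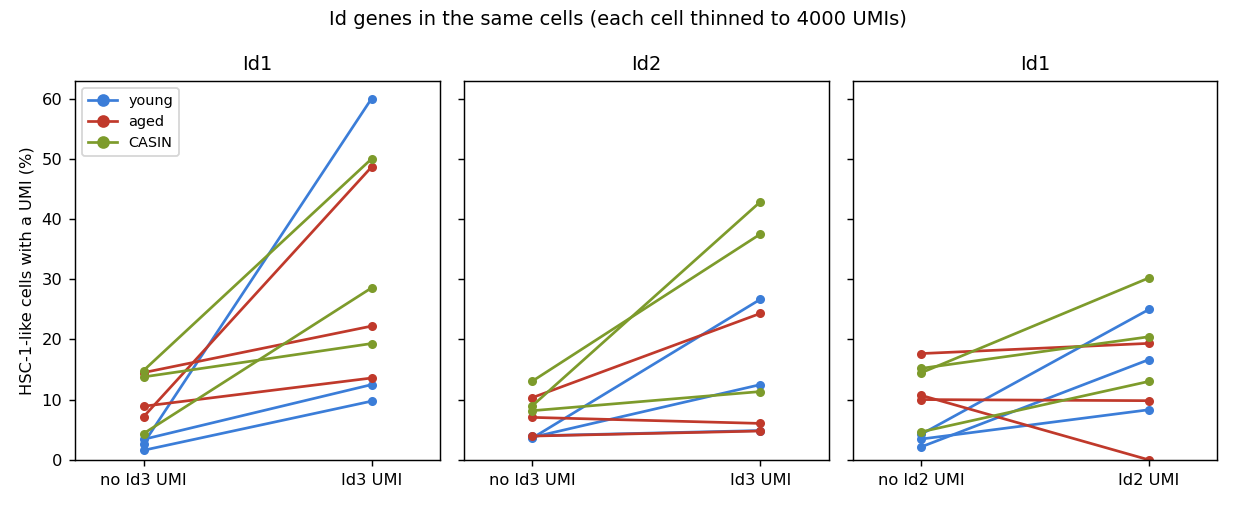
Share of HSC-1-like cells with a UMI of one Id gene (%) among cells without and with a UMI of another, each cell thinned to 4000 UMIs, with 1 line per sample coloured by group. For Id1 by Id3 all 9 lines rise, for Id2 by Id3 8 of 9, and for Id1 by Id2 7 of 9.

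The genes around the Id proteins were taken from lists by role, with the named genes chosen by a fixed rule from the aged over young contrast of all LSK cells, where the median log2 fold change over all genes tested was 0.01. Of the ligands of the BMP and TGF-beta family, 4 of 7 were tested and 1 rose, where 3.59% of all genes tested did. Bmp4, a ligand that acts through Bmpr1a, was at 0.71, 0.95 and 1.98 CPM in the young, 15.1, 5.28 and 4.25 in the aged and 11.2, 9.15 and 15.9 in the CASIN samples. All young samples were below all others. Its log2 fold change in aged over young was 2.86 ± 0.56 (adjusted p = 0.0272), 4.19 and 1.29 within batches 1 and 2, and the median of the ligands was 0.74.

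Of the receptors 9 of 11 were tested and 1 rose. Bmpr1a, the type I receptor of the BMPs, was at 0.60, 0.51 and 1.58 in the young, 8.22, 14.7 and 18.8 in the aged and 9.63, 6.49 and 20.03 in the CASIN samples. The groups of aged mice were again apart from the young one, with a log2 fold change of 3.64 ± 0.22 (adjusted p = 0.000456) that was 3.9 and 3.42 within the batches. The median of the receptors was 0.04. Among the Smads, which carry the signal to the nucleus, 5 of 6 were tested and none passed, with a median of 0.15. Smad3, Smad4 and Smad1 had the smallest p, with 0.35 ± 0.14 (adjusted p = 0.181), -0.16 ± 0.10 (adjusted p = 0.358) and 0.15 ± 0.09 (adjusted p = 0.376). Of the inhibitors of the pathway 8 of 9 were tested, with a median of 0.29, and 1 rose: Skil, a repressor of Smads and also a marker of the MPP1-like class, by 0.69 ± 0.15 (adjusted p = 0.0343). Skil was at 25.5 to 54.6 CPM in batch 1 and 458 to 680 in batch 2, so its difference between batches exceeded that between ages.

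The E proteins did not pass the test, while 2 members of the complexes around them did. Of the list of E proteins and the members of their complexes 11 of 13 were tested, with a median of 0.21, and 2 rose. Tcf3, Tcf4 and Tcf12, the E proteins themselves, gave -0.07 ± 0.11, 0.02 ± 0.12 and 0.05 ± 0.08 (adjusted p of 0.739 or more). The 2 that passed were Runx1t1, a corepressor of the ETO family, with 2.85 ± 0.53 (adjusted p = 0.0244), and Gata2, a stem cell transcription factor, with 1.02 ± 0.21 (adjusted p = 0.0302). Id4, the remaining family member and part of this list, was at 1.14 CPM or less in every sample. Of the lymphoid genes that E proteins are known to activate 12 of 12 were tested and none passed, with a median of -0.87. The smallest p were those of Foxo1 with 0.42 ± 0.11 (adjusted p = 0.0596), Cdkn1a with 0.42 ± 0.12 (adjusted p = 0.0803) and Rag2 with -2.62 ± 0.78 (adjusted p = 0.0887), the last at 2.29 CPM or less. Early lymphoid-like cells, in which Rag1 and Il7r are marker genes, were counted as a class of their own, and the part of their number in this list was not tested.

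Immediate early genes, which respond within minutes to signals and to handling and include markers of the HSC-2-like class, were the list with the most calls: 22 of 22 were tested, 11 rose and 0 fell, with a median of 1.10. The largest of those that passed were Nr4a2 with 2.27 ± 0.32, Nr4a1 with 1.78 ± 0.30, Fosb with 1.71 ± 0.32, Egr3 with 1.58 ± 0.36, Atf3 with 1.51 ± 0.28 and Egr1 with 1.43 ± 0.25, with adjusted p of 0.0108 to 0.043. Nr4a2 was at 33.1, 38.6 and 107 CPM in the young and 230, 503 and 218 in the aged samples, without overlap. The part of this list in the change of the Id genes was not tested. Its count of 11 was 1 without young replicate 1, 1 without young replicate 2 and 7 without young replicate 3. All genes called higher numbered 26, 29 and 822 in these fits, beside 490 with every sample.

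In HSC-1-like cells the same lists gave, in aged over young, with 6.01% of all genes higher and 2.66% lower, 1 of 4 ligands higher (Bmp4, 1.75 ± 0.26, adjusted p = 0.00139), 2 of 9 receptors (Bmpr1a, 3.33 ± 0.26, adjusted p = 1.76e-05, and Tgfbr3, 1.12 ± 0.27, adjusted p = 0.0189), 1 of 5 Smads (Smad3, 0.66 ± 0.17, adjusted p = 0.031) and 1 of 8 inhibitors (Skil, 0.66 ± 0.16, adjusted p = 0.0244). Among E proteins and complexes Runx1t1 (1.93 ± 0.29) and Gata2 (0.83 ± 0.20) were higher and Lyl1, a basic helix-loop-helix partner of E proteins, was lower (-0.48 ± 0.14, adjusted p = 0.0484). Of 6 lymphoid genes tested Cdkn1a (0.93 ± 0.17, adjusted p = 0.00565) and Foxo1 (0.59 ± 0.15, adjusted p = 0.0224) were higher, genes of cell cycle arrest and of quiescence, which are not lymphoid alone. Of 22 immediate early genes 14 were higher and 0 lower.

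Over all LSK cells of CASIN over young samples, where 3.8% of the genes rose, Bmp4 (3.41 ± 0.56, adjusted p = 0.0166) and Bmpr1a (3.76 ± 0.22, adjusted p = 0.00028) rose, as did Tgfbr3 (1.51 ± 0.36, adjusted p = 0.0493) and Smad1 (0.38 ± 0.09, adjusted p = 0.0469). Of 22 immediate early genes 2 rose, Nr4a2 (1.63 ± 0.31) and Jund (0.67 ± 0.08). This count of 2 was 6 with DESeq2, 10 with no filter on low counts and 14 with the 2 groups alone. It was 1 at a mitochondrial limit of 5%, and 1 to 7 when a sample was left out. In HSC-1-like cells, CASIN over young had 12 of 22 immediate early genes higher, where 1009 of 11488 genes tested were. In CASIN over aged samples no gene of any list passed in edgeR, and the median of the immediate early genes was -0.50, beside -0.01 over all genes tested.

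**Figure D5:**
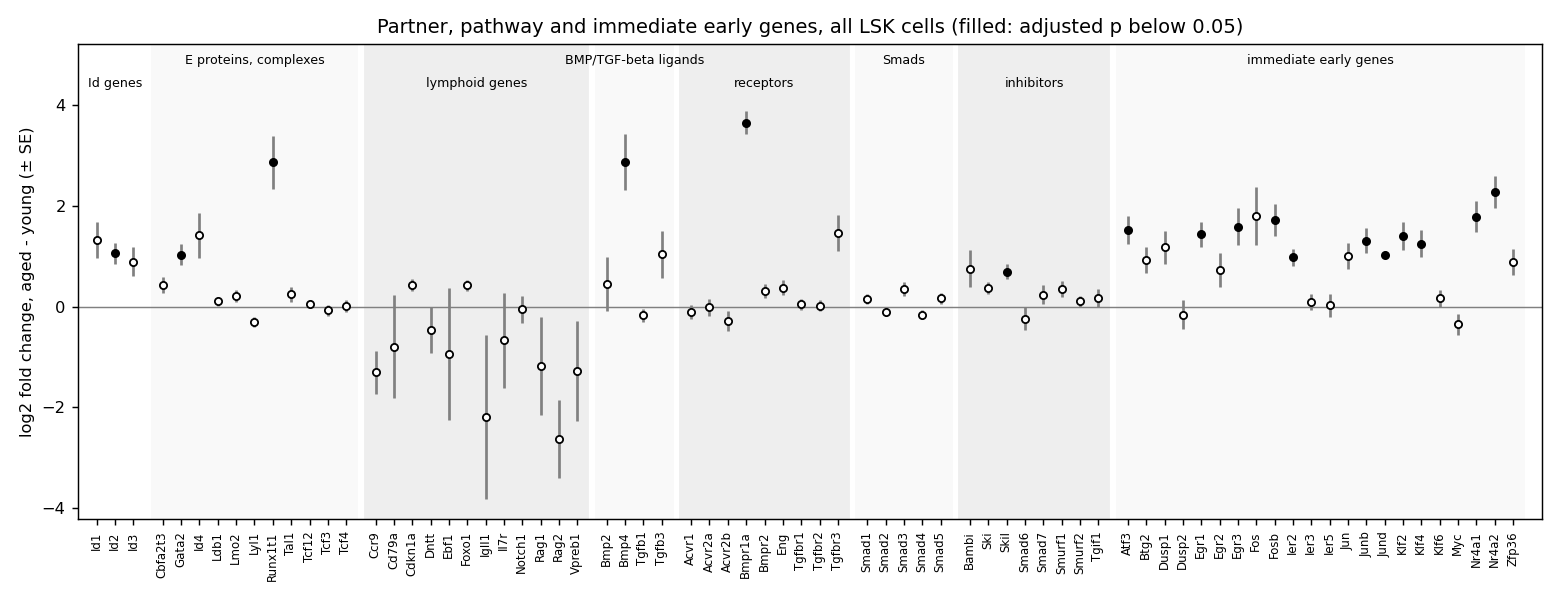
Log2 fold change (± SE) of aged over young LSK cells for the tested genes of each list, grouped by role, filled where the adjusted p is below 0.05. Bmpr1a stands highest at 3.64, Tcf3, Tcf4 and Tcf12 lie near 0, and 11 of the 22 immediate early genes are filled.

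Markers of other cell types were summed beside these results. The 10 endothelial and stromal markers summed to 44.2 to 62.4 CPM in young samples, 46.7 to 60.9 in aged samples and 60.6 to 68.8 in CASIN samples, with Tie1 as the only call of 7 tested (0.76 ± 0.17, adjusted p = 0.0401). The 10 lymphocyte markers came to 116 to 222, 138 to 156 and 74.9 to 212, and the 6 red cell markers to 26.4 to 47.8, 12.9 to 42.3 and 20.9 to 42.4. No gene of either list passed in edgeR, and the smallest p were those of Klrd1 (-1.25 ± 0.64), Cd79a (-0.80 ± 1.02) and Cd79b (-0.09 ± 0.16), and of Hbb-bt (-0.48 ± 0.20), Hba-a1 (0.61 ± 0.59) and Hbb-bs (-0.34 ± 0.63). The 8 mature myeloid markers came to 231 to 313, 286 to 649 and 224 to 282, none passing in edgeR, with S100a8 (1.95 ± 0.93), Lyz2 (0.25 ± 0.15) and Ngp (2.46 ± 1.82) as those of smallest p. All markers of these lists had UMIs somewhere in the 9 libraries. Their part in the levels over all LSK cells or in HSC-1-like cells was not tested. In HSC-1-like cells Lyz2 gave 0.01 ± 0.12 in aged over young, and of 5 endothelial and stromal markers tested Tie1 rose (0.51 ± 0.11) while Cxcl12 (-5.10 ± 1.28) and Emcn (-0.59 ± 0.17) fell.

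The genes most like each member were read from 5737 genes with a mean of at least 20 CPM, by Pearson r, as a description of points that share library, depth and groups. Over the 9 samples, after the batch means had been subtracted, Id1 was most like Ccnd2 (r = 0.973), Erf, Rusc1, Ctsc and Efhd2. Id2 was most like Socs3 (r = 0.991), a feedback inhibitor of cytokine signals, then Arih2, Rusc1, mt-Co3 and Efhd2, and Id3 was most like Arih2 (r = 0.958), Klf10, Id2, Zfp593 and Fbrsl1. The members themselves followed each other over the samples with r of 0.94 for Id1 and Id2, 0.88 for Id1 and Id3 and 0.93 for Id2 and Id3. Over the 17 classes Id1 was most like B4galt4 (r = 0.839), Mrrf, Orai3, Eif4ebp1 and Lst1, Id2 like Tpd52 (r = 0.915), Limd1, Dnajc7, Coa5 and Btg1, and Id3 like Lamp1 (r = 0.863), Nptn, Arf5, Ctsc and Timm10b. The members were thus alike over samples, while Id1 and Id2 had an r of -0.01 over classes. The values of r over classes include the monocyte and dendritic MP-like class, which stands apart in Id2 and Id3.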

How the data were processed

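Droplet single-cell RNA-seq (10x Chromium 3' v3) of LSK cells gave 9 matrices of raw UMI counts per gene and cell, which the authors made with Cell Ranger 3.1.0 against GRCm38 (mm10) with Ensembl 93 and deposited without normalisation. Tool and build names follow the submitters' processing notes and the study's methods. The libraries held 19237354 to 42780953 UMIs, of which 17555578 to 35118707 lay in kept cells.

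Cells with 1000 to 40000 UMIs, at most 6000 genes, at most 10% mitochondrial UMIs and a residual of log genes on log UMIs of at most 0.4 were kept. They were normalised by SCTransform, integrated by canonical correlation anchors over 2997 features and 30 dimensions (with IntegrateEmbeddings, since IntegrateData exceeded the memory) and clustered on 35 components at resolution 0.8 (Seurat 5.3.0, R 4.3.3). Scrublet (scanpy 1.11.5) called 67 doublets, 0.423% of the cells, a share too low to be taken as working, and no cell was removed.

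Counts were summed per sample over all cells or per class, with classes of at least 20 cells in each sample tested. They were compared with edgeR 4.0.16 (TMM, filterByExpr, quasi-likelihood test, batch term, all 9 samples) and Benjamini-Hochberg adjustment. SEs are the log2 fold change over the square root of F. Differences between classes used limma 3.58.1, and DESeq2 1.42.0 was an alternative. Scripts were tested on simulated data. Exact permutation tests used scipy 1.17.1 and numpy 2.4.6 (Python 3.11.15). UMI counts cover counting error only.

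Named list genes were those with the largest changes past the threshold in aged over young LSK cells (up to 6 per list) or, where none passed, the 3 of smallest p, and for each member the 5 genes of highest r. The members, lists and tests were chosen with earlier results of these data known. The split of the HSC-1-like clusters by Vwf, the removal of cells with the highest Scrublet scores and the fixed class makeup were chosen after seeing the data. Deviations from group means, with the batch left in, were correlated between same-numbered replicates. They gave r of 0.73 to 0.89 for numbers 1 and 3, and -0.61, 0.79 and -0.60 for number 2. Numbers 1 and 3 each lie in a single batch, while aged replicate 2 lies in another batch than young and CASIN replicate 2. These correlations cannot tell pairing from batch, and the numbers were not taken to pair the samples.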

Additional observations from a re-analysis of the deposited data

Results flagged for a closer look

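The change of 2 members between CASIN and young samples differed between classes of cells, by limma's test of the difference itself. Id1 changed by 1.56 ± 0.29 (log2, SE, adjusted p = 0.0049) more in HSC-1-like than in LMPP-like cells, and Id2 by 1.45 ± 0.27 (adjusted p = 0.00477) more. In aged over young the same difference was 0.92 ± 0.30 for Id1 and 0.66 ± 0.28 for Id2. In CASIN over aged it was 0.64 ± 0.30 and 0.79 ± 0.28, and none of these was called. In edgeR's fit of LMPP-like cells alone, CASIN over young gave -0.39 ± 0.29 for Id1 and 0.07 ± 0.23 for Id2, and in HSC-1-like cells 1.38 ± 0.32 and 1.56 ± 0.22. In HSC-1-like cells every CASIN sample was above every young one for Id2, and for Id1 all but CASIN replicate 2. The cause was not tested.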

How the results depend on the processing

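Fits that leave out a sample are given apart, as ranges, below. Under the other alternatives most results kept their direction and their side of the threshold: for those that answer a comparison, 186 alternative values did, 13 passed where the reported value had not, 18 no longer passed and 11 changed sign, the last all in CASIN over aged, where no reported value passed. In that contrast Id3 in LMPP-like cells passed with no filter on low counts, as given above. The cause was not tested, except that leaving out groups or samples leaves fewer samples. Over all LSK cells in aged over young, Id1 passed with DESeq2 (1.3), no filter on low counts (1.3) and no mitochondrial limit (1.47), and Id3 with DESeq2 (0.86) and no filter (0.86). Id2 missed the threshold without the batch term (0.74), with the 2 groups alone (1.08) and at a mitochondrial limit of 5% (1.2). In CASIN over young, Id1 passed with DESeq2 (1.29), no filter (1.31) and the 2 groups alone (1.28), and Id2 missed it without the batch term (0.83) and at 5% (0.77). In HSC-1-like cells the calls were lost without the batch term in aged over young (Id1 1.28, Id2 0.94, Id3 1.89) and in CASIN over young (Id1 1.34, Id2 1.56), and with DESeq2 in aged over young (Id1 1.40, Id3 1.16). Id3 in CASIN over young passed with no filter (0.90), the 2 groups alone (0.89), without the 6% of cells of highest Scrublet score (0.98) and at resolution 0.4 (0.98). The differences between HSC-1-like and LMPP-like cells in CASIN over young were not called without the batch term (Id1 1.56, Id2 1.45). Resolution 0.4 gave 12 clusters, with no HSC-2-like class and no Ctsg Srm cluster among them. The calls in these classes were therefore not checked at that resolution.

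Signs changed in CASIN over aged. Over all LSK cells Id1 was 0.0149 without the filter, 0.22 without the batch term and 0.0163 with the 2 groups alone, and Id2 was 0.0912 without the batch term. In HSC-1-like cells Id1 was -0.0148 with DESeq2 and -0.17 at 5%. The difference between classes for Id3 was -0.40 without the batch term, and the share of cells with Id1 was -0.81 percentage points without thinning. Id1 and Id2 in the same cells passed over all LSK cells thinned to 4000 UMIs (6.23 percentage points) and not at 2000 UMIs (2.48).

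With the replicate number as a block beside the batch term, the model gives aged replicate 2 a term of its own. The aged values of this fit therefore rest on aged replicates 1 and 3. A call lost in aged over young cannot be told apart here from the loss of that sample. In this fit Id2 over all LSK cells in aged over young gave 0.82 (adjusted p = 0.0839). In HSC-1-like cells Id1, Id2 and Id3 gave 1.04, 0.95 and 0.98, none past the threshold. CASIN over aged over all LSK cells gave 0.28, 0.046 and 0.0572 for Id1, Id2 and Id3. Outside these, the calls of Id2 (1.46) and Id3 (1.10) in aged HSC-3-like cells were lost and Id3 passed in aged LMPP-like cells (1.04, adjusted p = 0.0391), and no other call of a member changed over all LSK cells or in the HSC-1-like, HSC-2-like, HSC-3-like, LMPP-like and Ctsg Srm cells, where this fit was run. The genes called in aged over young LSK cells fell from 560 to 80. With the batch left in, 8 of 9 samples correlated best with their own number, which cannot tell pairing from batch.

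When each sample was left out in turn, values over all LSK cells were 1.14 to 1.51 (Id1), 0.85 to 1.2 (Id2) and 0.49 to 1.13 (Id3) in aged over young, -0.28 to 0.27, -0.33 to 0.031 and -0.46 to 0.0911 in CASIN over aged, and 1.02 to 1.65, 0.79 to 0.98 and 0.40 to 0.98 in CASIN over young. In HSC-1-like cells they were 1.07 to 1.65, 0.93 to 1.35 and 0.83 to 1.52, then -0.37 to 0.28, 0.20 to 0.60 and -0.85 to -0.06, then 1.12 to 1.72, 1.41 to 1.71 and 0.46 to 1.2. The differences between classes were 0.85 to 1.02, 0.48 to 0.96 and -0.36 to 0.33, then 0.31 to 0.96, 0.54 to 0.99 and 0.11 to 1.07, then 1.16 to 1.95, 1.15 to 1.70 and 0.33 to 1.12. The share of cells gave -0.91 to 2.55, -0.95 to 2.80 and -11.1 to 0.20 percentage points in CASIN over aged, and -0.14 to 9.17 for Id3 in CASIN over young. Outside CASIN over aged, the sign changed in these fits for Id3 in the difference between classes in aged over young (without young replicate 1 or aged replicate 1) and in this last share (without CASIN replicate 3).

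Counts of genes called moved by over 1.5 times. In aged over young LSK cells, 560 became 1135 with DESeq2, 1048 with no filter, 0 without the batch term, 93 with the 2 groups alone, 323 at 5%, 1157 without the limit and 31 to 945 without a sample. In CASIN over young, 582 became 1269, 1119, 0, 1778, 124, 1104 and 20 to 1584 in the same order, and 360 with the block. In HSC-1-like cells 996 became 1550 with no filter, 9 without the batch term, 612 with the block, 596 with the 2 groups alone, 618 at 5% and 267 to 1201 without a sample, and 1700 became 13, 1015 and 948 to 2030 without the batch term, at 5% and without a sample. In CASIN over aged 55 passed with no filter and 0 to 6 without a sample.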
